A study of Mus musculus with 12 samples.

Results

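The BCL2 family sets whether the mitochondrial outer membrane of a cell holds or is opened, and with it whether the cell survives or dies by apoptosis. Survival members (Bcl2, Bcl2l1, which encodes BCL-XL, Mcl1 and the A1 proteins encoded by Bcl2a1a, Bcl2a1b and Bcl2a1d) bind and hold back the pore-forming effectors Bax and Bak1, while BH3-only members such as Bid and Bcl2l11 (BIM) sense stress and set the effectors free. In macrophages the A1 genes are known targets of NF-kappaB, and MCL1 is a short-lived protein that myeloid cells need. These 10 genes were taken by symbol from the 54446 genes of the deposited count table. All 10 were found once and all 10 passed the filter on low counts, which left 13773 genes for testing.

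Transcripts were read by RNA sequencing of macrophages grown out of mouse marrow (femurs and tibias) in RPMI 1640 with recombinant M-CSF. All mice carried loxP-flanked NLRC3 alleles (NLRC3 fl/fl). The wild-type group (WT) was LysM-Cre-, and the knockout group (KO) was LysM-Cre+, so that Cre recombinase made in myeloid cells deletes Nlrc3, a NOD-like receptor gene. Cells of each genotype stayed in medium or were given lipopolysaccharide (LPS), a bacterial product that activates macrophages, for 12 h, with 3 libraries in each of the 4 groups. The title of the series asks how loss of NLRC3 bears on glycolytic genes under LPS, and the BCL2 family was not its subject. The age of the mice is not given in the sources used here. Labels do not state that the 3 libraries of a group are 3 mice, so a p-value speaks only for the spread among these libraries, part of which may be technical.

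The libraries labelled KO went against their labels, in Nos2 under both treatment labels and in Nlrc3 under LPS. Nlrc3, in counts per 1000000 (CPM), lay at 9.89 to 13.6 in WT medium, at 0.796 to 4.39 in WT LPS, at 0.85 to 0.996 in labelled KO medium and at 6.04 to 15.6 in labelled KO LPS. It was therefore higher in the libraries labelled KO LPS than in WT LPS, by 1.76 ± 0.52 on the log2 scale (SE, edgeR quasi-likelihood test, Benjamini-Hochberg adjusted p = 0.0298). A count over the whole gene does not show the deleted part alone. Nos2, the inducible nitric oxide synthase that LPS switches on in macrophages, lay at 3.90 to 8.35 CPM in WT medium, 831 to 2704 in WT LPS, 1148 to 2717 in labelled KO medium and 0.689 to 5.43 in labelled KO LPS. The groups are called by their labels below. Every direction that involves the libraries labelled KO rests on labels that these genes contradict, whereas within WT Nos2 went with the labels.

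Library totals ran from 13082947 to 20960505 counts, so 3 counts, the limit that a count of 0 allows, correspond to 0.143 to 0.229 CPM, which covers counting error only. All 9 macrophage markers were detected in every group. Lyz2, the lysozyme gene, had the highest mean level of them in every group. Their summed level was 32443 to 36024 CPM in WT medium, 12739 to 19450 in WT LPS, 10195 to 13106 in labelled KO medium and 21536 to 34656 in labelled KO LPS. Lyz2 averaged 27266 CPM in WT medium and 10048 in WT LPS, whereas Fcgr1, an Fc receptor gene of the same list, averaged 438 and 1764, Cd14 707 and 1129 and Itgam 290.1 and 341. The summed level of 12 neutrophil markers was 986 to 1508, 1194 to 4900, 1400 to 3526 and 1240 to 7244 CPM in the same order, with none at 0 in a whole group. B cell markers (8 genes) reached 418 CPM in labelled KO LPS against at most 115 elsewhere, 4 dendritic cell markers 25.1 against at most 4.97, and 4 megakaryocyte markers 503 to 775 against at most 519. Stromal markers (7 genes) reached 266 CPM in WT LPS against at most 130.4 elsewhere, and 6 T and NK cell markers at most 10.97 in any library. Xist, which is made from the silenced X of female cells, was present in WT medium 1 and 3, WT LPS 2 and labelled KO LPS 2 and 3, and Y-linked transcripts in the other 7 libraries. The labels' descriptions of WT medium 2 and WT LPS 1 share a number, as do those of WT medium 3 and WT LPS 2. What the number stands for is not given in the sources used here, and both libraries of a pair were of the same kind, Y-linked in the first pair and Xist in the second. The part of these differences in the results below was not tested, except where a value without a library or within the Xist and Y-linked libraries is given. In bulk samples, fewer cells of a type and less RNA per cell cannot be told apart.

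The 3 A1 genes carried the largest folds of the family and are near-identical copies, so the stretches just upstream of their annotated starts are shown, 5′ to 3′ on the strand of each gene, as RefSeq gives them for GRCm38.p6. Bcl2a1a is at chr9:88956670-88956899 (+), Bcl2a1b at chr9:89199023-89199208 (+) and Bcl2a1d at chr9:88731915-88732100 (-). Capitals mark GAGGAAGT, a purine-rich motif of the kind bound by ETS factors such as PU.1, chosen after the sequences had been read.
Bcl2a1a: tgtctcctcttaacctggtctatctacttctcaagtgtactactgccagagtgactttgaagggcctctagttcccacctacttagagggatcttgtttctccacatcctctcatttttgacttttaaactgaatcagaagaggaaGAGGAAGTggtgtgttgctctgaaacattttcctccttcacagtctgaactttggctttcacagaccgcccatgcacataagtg
Bcl2a1b: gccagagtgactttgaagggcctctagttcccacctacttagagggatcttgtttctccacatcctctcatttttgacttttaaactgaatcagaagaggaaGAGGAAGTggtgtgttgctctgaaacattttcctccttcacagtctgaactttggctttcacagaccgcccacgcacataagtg
Bcl2a1d: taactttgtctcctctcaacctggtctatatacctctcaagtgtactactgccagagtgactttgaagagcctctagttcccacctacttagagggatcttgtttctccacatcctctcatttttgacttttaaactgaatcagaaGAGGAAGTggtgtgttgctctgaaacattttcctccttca

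Where they align, the Bcl2a1a and Bcl2a1b stretches differed at 1 of 186 positions (99.5% identity). Bcl2a1d differed from Bcl2a1a at 4 positions and by a gap of 6 positions over 186 (94.6%). The coding sequences, of 516 bases each, differed at 11 bases between Bcl2a1a and Bcl2a1b, at 7 between Bcl2a1a and Bcl2a1d and at 6 between Bcl2a1b and Bcl2a1d. Reads from copies this alike can be assigned to the wrong one, so the level of each copy is uncertain, and their sum is given as well. Searched on both strands, GAGGAAGT was in the promoter windows (250 bases before to 50 after a start) of 4 members, the 3 A1 genes and Bak1, and in 3.11% of 32544 RefSeq promoter windows. The kappaB consensus had 1 match, in a Bcl2l1 window, and was in 8.49% of all windows. TTCNNNGAA, the STAT motif, and TATAAA, the TATA box, had no match among the members and were in 8.33% and 13.6% of all windows. The A1 windows held 44.3% to 46.7% G and C and 3 or 4 CpG dinucleotides. Windows of the other members held 49.3% to 76% and 1 to 44 CpG, the fewest in a Bcl2l1 window. The median over all windows was 53% and 7 CpG.

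On GRCm38, counted from 1, GENCODE M21 places the A1 genes on chromosome 9: Bcl2a1d at 88723285 to 88731914 on the minus strand, Bcl2a1a at 88956900 to 88962419 and Bcl2a1b at 89199209 to 89207827, both on the plus strand. Bcl2 is on chromosome 1 (106538178 to 106714274), Bcl2l1 and Bcl2l11 on chromosome 2 (152780668 to 152831728 and 128126038 to 128162547) and Mcl1 on chromosome 3 (95658788 to 95663176). Bid is on chromosome 6 (120891930 to 120916853), Bax on chromosome 7 (45461697 to 45466898) and Bak1 on chromosome 17 (27019810 to 27029009). Exons of Bid overlap those of Bcl2l13 on the opposite strand, a gene at 10.5 to 45.2 CPM, and exons of Bak1 overlap those of Ggnbp1, at 0.135 to 1.69 CPM. On the same strand, Bcl2a1b overlaps Gm29094 and Bax overlaps Gm45808, both listed at 0 in every library, and Bcl2 overlaps D630008O14Rik on the opposite strand, at 0.0664 CPM at most. Whether reads were counted by strand, and what was done with reads in 2 genes, is not given in the sources used here, so the levels of these 5 members are uncertain, most of all Bid.

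LPS in WT cells raised 4 of the 10 members, Bcl2a1a, Bcl2a1d, Mcl1 and Bak1, and lowered none. Among the 13773 genes tested, 18.3% were called, 11.9% higher and 6.46% lower. The median log2 fold of the members was 0.75 against -0.06 for all genes tested. In the libraries labelled KO, LPS against medium gave 0 members higher and 5 lower (all genes 30.4%, 15.1% higher and 15.3% lower), the 3 A1 genes, Mcl1 and Bak1, with a median of -0.85 against 0.04. In medium, the libraries labelled KO had 5 members higher and 1 lower than WT (all genes 26.3%, 14.0% higher and 12.3% lower), with a median of 0.99 against -0.02. Bcl2a1a, Bcl2a1d, Mcl1, Bak1 and Bid were the higher ones and Bcl2 the lower one. Under LPS, the libraries labelled KO had 0 members higher and 4 lower than WT (all genes 24.1%, 10.4% higher and 13.7% lower), Bcl2a1a, Bcl2a1d, Mcl1 and Bak1, with a median of -0.69 against 0.06. The difference between the 2 LPS effects, tested as an interaction, passed for 7 members, 1 higher and 6 lower (all genes 41.1%, 20.5% higher and 20.6% lower). These comparisons share groups in pairs, so their directions are not independent of one another.

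The 2 comparisons that cross both labels called no member. The libraries labelled KO medium lay between -0.24 and 0.87 (log2) of WT LPS over the 10 members, and those labelled KO LPS between -0.59 and 0.33 of WT medium. No member had an unadjusted p under 0.05 in either. Of all genes tested, edgeR called 0% in both, with 270 and 1135 genes at an unadjusted p under 0.05, and DESeq2 called 0 and 41. For Bcl2a1a the 95% intervals of these differences, from the SE of the fit, were -0.84 to 2.02 and -1.75 to 1.23, so a difference of several fold cannot be told from none. For Mcl1 they were narrower, at -0.30 to 0.81 and -0.61 to 0.50. The plot of folds sets the other 4 comparisons side by side.

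**Figure D1:**
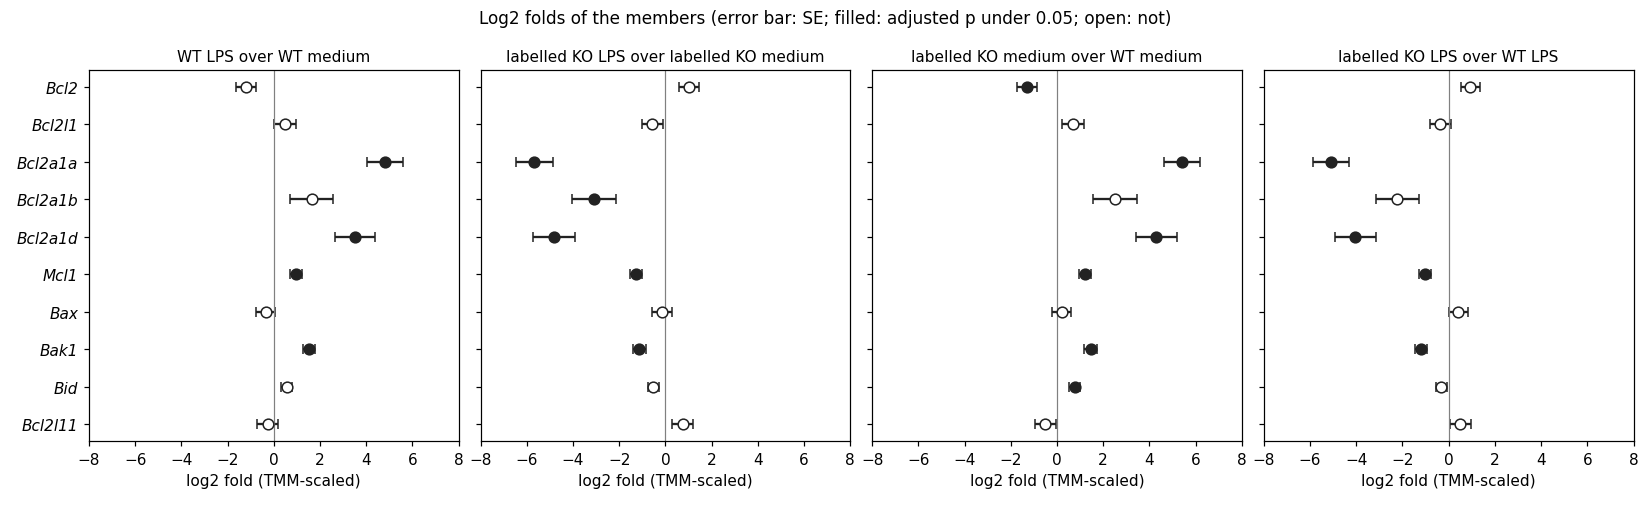
Log2 folds of the 10 members (vertical axis) in the 4 comparisons within a genotype label or within a treatment label, scaled by TMM factors. Points are fitted values, bars are SE (3 libraries a group) and filled points have an adjusted p under 0.05; Bcl2a1a runs from 4.81 in WT cells to -5.67 in the libraries labelled KO.

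Folds here are scaled by trimmed means (TMM), whose factors ran from 0.702 to 1.02 in WT LPS and labelled KO medium and from 1.10 to 1.46 in the other 2 groups. CPM levels are not scaled by them. With library totals alone, the median fold of all genes tested moved from -0.06 to -0.64 for LPS in WT cells, from 0.04 to 0.78 for labelled KO LPS over labelled KO medium, from -0.02 to -0.85 for labelled KO over WT in medium and from 0.06 to 0.57 under LPS. The share of calls that were higher moved from 64.8% to 24.4%, from 49.7% to 81.9%, from 53.4% to 16.1% and from 43.2% to 74.5% in the same order. The calls of Bcl2a1a and Bcl2a1d held under both scalings in all 4 comparisons. Mcl1 passed in none of the 4 with library totals alone.

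Of the survival members, Bcl2a1a changed most. Its level was 5.07, 9.48 and 2.44 CPM in WT medium 1, 2 and 3, and 149.9, 29.96 and 134.8 CPM in WT LPS 1, 2 and 3. It was 126, 203 and 94.4 CPM in labelled KO medium 1, 2 and 3, and in labelled KO LPS 6.12, 4.64 and 3.39 CPM. The WT LPS and labelled KO medium libraries lay above all libraries of the other 2 groups without overlap, and WT LPS 2 was the lowest of the high ones. The log2 folds were 4.81 ± 0.77 for LPS in WT cells (28.1-fold, SE, adjusted p = 0.0015) and -5.67 ± 0.80 for labelled KO LPS over labelled KO medium (50.8-fold lower, adjusted p = 0.00053). The comparison of labelled KO with WT gave 5.41 ± 0.80 in medium (adjusted p = 0.00072) and -5.07 ± 0.78 under LPS (adjusted p = 0.0011). Leaving out any 1 of the 12 libraries ended none of these 4 calls.

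Bcl2a1d had the highest level per length of the 3 copies in WT LPS. It lay at 18.3, 52.2 and 9.63 CPM in WT medium 1, 2 and 3 and at 313, 44.9 and 260.1 CPM in WT LPS 1, 2 and 3. Labelled KO medium had 267, 458 and 232 CPM and labelled KO LPS 29.9, 16.1 and 11.6 CPM. WT LPS 2 lay below WT medium 2, so those 2 groups overlapped, while the libraries labelled KO did not overlap. Between libraries whose descriptions share a number, Bcl2a1d was higher with LPS in both pairs, by 3.11 and 2.74 (log2, TMM-scaled CPM, no test). The same pairs differed in sign for Bcl2 (-2.05 and 0.03), Bcl2l1 (-0.19 and 1.35) and Bcl2l11 (1.25 and -0.84). For the remaining members both pairs had the same sign. LPS in WT cells gave 3.52 ± 0.86 (log2, 11.5-fold, adjusted p = 0.0147), and the call was lost without WT medium 1 (adjusted p = 0.064), WT medium 3 (0.052) or WT LPS 3 (0.053), and with only these 2 groups in the fit (0.067). Labelled KO LPS over labelled KO medium gave -4.81 ± 0.92 (adjusted p = 0.0027). For labelled KO over WT the folds were 4.30 ± 0.90 in medium (adjusted p = 0.0048) and -4.03 ± 0.89 under LPS (adjusted p = 0.0071).

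Bcl2a1b spread more widely within groups. It lay at 14.6, 55.2 and 6.82 CPM in WT medium 1, 2 and 3, at 86.1, 15.6 and 61.1 in WT LPS, at 69.6, 150.3 and 46.2 in labelled KO medium and at 31.9, 13.9 and 7.10 in labelled KO LPS. The WT groups overlapped, although Bcl2a1b was higher with LPS in both pairs of a shared number, by 1.17 and 1.72 (log2, TMM-scaled CPM, no test). LPS in WT cells gave 1.63 ± 0.91 (log2, adjusted p = 0.24), and labelled KO over WT gave 2.51 ± 0.94 in medium (0.068) and -2.22 ± 0.93 under LPS (0.10). Only the fold of labelled KO LPS over labelled KO medium passed, at -3.10 ± 0.96 (adjusted p = 0.030). That call was lost without any of labelled KO medium 1 or 2 or labelled KO LPS 2 or 3, with adjusted p of 0.057 to 0.11, and with a sex term in the fit (0.0505, at -1.73). DESeq2 also called the comparisons of the genotype labels, with adjusted p of 0.0128 in medium and 0.0332 under LPS, and a fit with the shared description numbers as terms called the first (2.998, adjusted p = 0.0305).

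The 3 copies were also summed before the fit, together with the related gene Bcl2a1c, at 0.464 CPM at most. For this sum, LPS in WT cells gave 3.22 ± 0.88 (log2, adjusted p = 0.0243) and labelled KO LPS over labelled KO medium -4.48 ± 0.93 (0.0042). Labelled KO over WT gave 3.96 ± 0.91 in medium (0.0081) and -3.74 ± 0.90 under LPS (0.0113). The sum thus passed in all 4, whichever copy the reads came from. Among the Xist libraries, WT LPS 2 lay 3.56 (log2, TMM-scaled CPM, no test) above the mean of WT medium 1 and 3 for Bcl2a1a and 2.23 above it for Bcl2a1d. Among the Y-linked libraries the differences were 4.39 and 2.93. WT LPS 2, which had the lowest A1 levels of the WT LPS libraries, was the one Xist library of its group. Without it the fit of the WT LPS effect called 4 members, as with it.

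The make-up of the A1 sum differed between the groups as well. By FPKM, fragments per kilobase of gene and 1000000 reads, Bcl2a1a made up 8.29% to 13.7% of the sum in WT medium and 28.1% to 33.9% in WT LPS. It made up 25.7% to 28.1% in labelled KO medium and 9.20% to 15.8% in labelled KO LPS. Bcl2a1b went the other way, with 37.2% to 48.4%, 13.8% to 17.8%, 12.8% to 19.1% and 33.1% to 48.1% in the same order. Bcl2a1d held 42.7% to 61.0% in every library. The Bcl2a1a and Bcl2a1b shares of WT LPS and labelled KO medium did not overlap those of the other 2 groups, WT LPS 2 included. These shares carry the uncertainty of assigning reads among the copies, and no test was made of them.

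**Figure D2:**
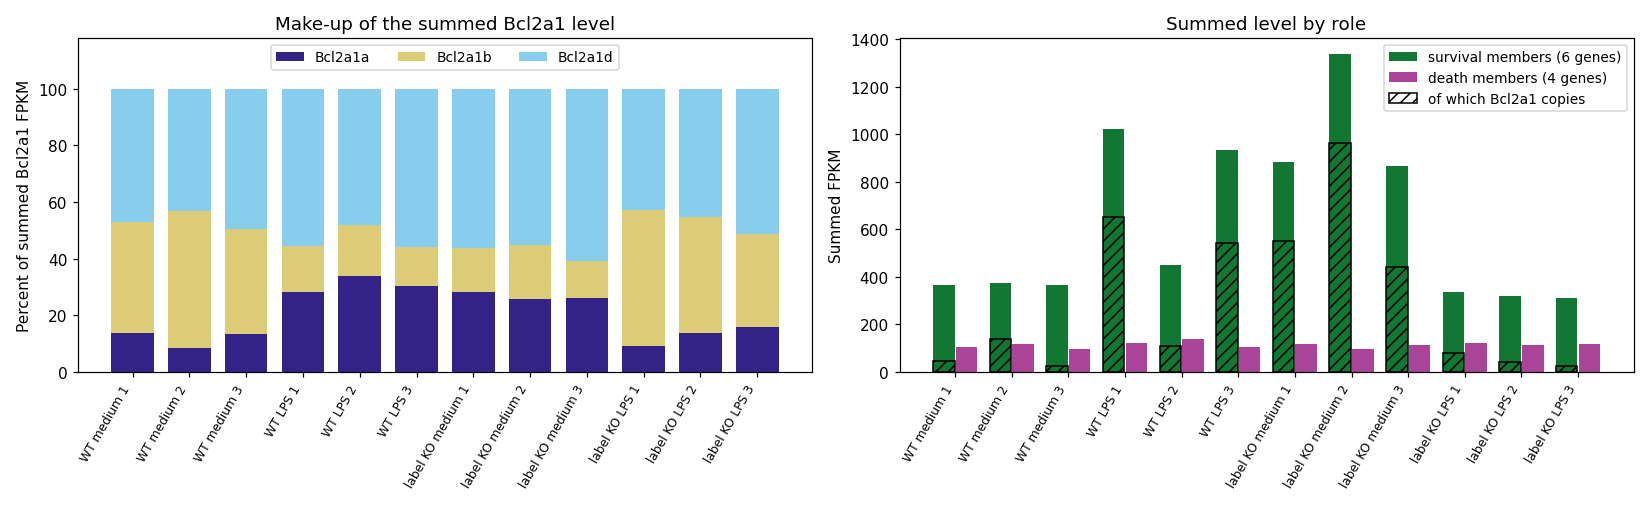
Left, percent of the summed Bcl2a1 FPKM that each copy makes up in each of the 12 libraries. Right, summed FPKM of the 6 survival members and the 4 death members in the same libraries, with the A1 part hatched; the A1 part is 107.8 FPKM in WT LPS 2 and 541 or more in the other WT LPS libraries.

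Mcl1 had the highest mean level per length of the family in 3 of the 4 groups. It lay at 1039.8, 670.0 and 1119 CPM in WT medium 1, 2 and 3, at 1194, 1067 and 1272 in WT LPS, at 1067, 1218 and 1368 in labelled KO medium and at 722, 890.3 and 915 in labelled KO LPS. On this unscaled level WT medium overlapped WT LPS and labelled KO medium, and the libraries labelled KO did not overlap one another. After TMM scaling, WT LPS lay at 1050.2 to 1560.2 and WT medium at 607 to 768. The log2 fold of LPS in WT cells was 0.96 ± 0.26 (1.94-fold, adjusted p = 0.0224) and that of labelled KO LPS over labelled KO medium -1.27 ± 0.26 (adjusted p = 0.0037). Labelled KO over WT gave 1.22 ± 0.26 in medium (adjusted p = 0.0053) and -1.02 ± 0.26 under LPS (adjusted p = 0.0147). With library totals alone the 4 folds kept their signs at 0.32, -0.53, 0.37 and -0.48 and none passed (adjusted p = 0.33, 0.10, 0.24 and 0.15). The WT call was also lost without any 1 of WT medium 1, 2 or 3 or WT LPS 1 or 3 (adjusted p = 0.056 to 0.099), and the call under LPS without WT LPS 3 (0.051) or labelled KO LPS 2 (0.055). With no filter the same 2 calls were lost (0.164 and 0.079), and with only the WT groups in the fit that of WT (0.098). Limma on FPKM called none of the 4 (adjusted p = 0.105 to 0.30).

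Bcl2 had the lowest mean level per length of the family in every group. It lay at 9.02, 12.7 and 5.97 CPM in WT medium 1, 2 and 3, at 2.12, 4.25 and 2.07 in WT LPS, at 1.88, 2.34 and 2.43 in labelled KO medium and at 10.8, 5.35 and 6.25 in labelled KO LPS. In unscaled CPM, WT medium and labelled KO LPS lay above the other 2 groups without overlap. After TMM scaling the WT groups overlapped, with WT medium 3 at 4.09 and WT LPS 2 at 4.18. The fold that passed was labelled KO over WT in medium, at -1.29 ± 0.43 (log2, adjusted p = 0.0456), and leaving out any of 9 libraries raised its adjusted p to between 0.052 and 0.14. It was -0.89 without WT medium 2. The adjusted p was 0.063 with only the 2 groups in the fit, 0.069 with the replicate number as a block and 0.18 with the shared description numbers as terms. The folds that missed the threshold were -1.22 ± 0.43 for LPS in WT cells (0.069), 1.02 ± 0.43 for labelled KO LPS over labelled KO medium (0.094) and 0.94 ± 0.43 for labelled KO over WT under LPS (0.13). DESeq2 called the first of these at -1.24 (adjusted p = 0.0279), and library totals alone called all 3. Limma on FPKM also called all 3 (adjusted p = 0.011 to 0.031), and edgeR with a sex term called the first (0.035) and the second (0.045). Among Xist libraries the WT difference was -0.32 and among Y-linked libraries -2.12 (log2, TMM-scaled CPM, no test).

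Bcl2l1 did not pass in any comparison. It lay at 78.4, 168 and 71.5 CPM in WT medium 1, 2 and 3, at 102, 127 and 86.3 in WT LPS, at 105, 90.1 and 113.5 in labelled KO medium and at 195, 78.1 and 73.2 in labelled KO LPS. All groups overlapped, and WT medium 2 and labelled KO LPS 1 lay well above the other libraries of their groups. The log2 fold of LPS in WT cells was 0.49 ± 0.46, with a 95% interval of -0.52 to 1.49, and -0.014 with library totals alone. These 2 libraries were the ones without Xist in their groups and also had the highest Bcl2, Bax, Bcl2a1a, Bcl2a1b and Bcl2a1d levels of their groups.

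**Figure D3:**
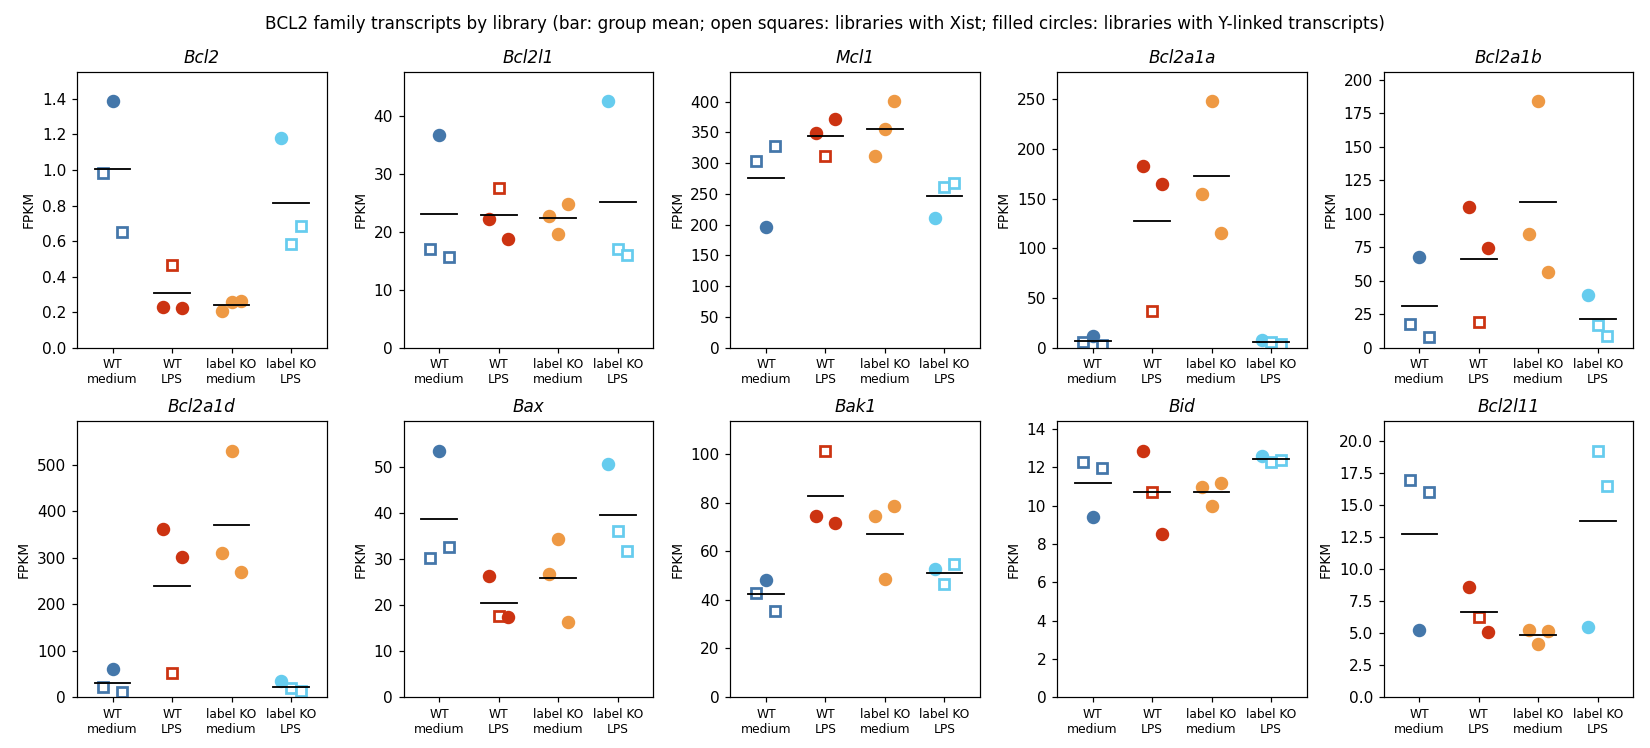
FPKM of each member in each library (points) with the group mean (bar), WT medium, WT LPS, labelled KO medium and labelled KO LPS from left to right; each panel has its own axis from 0. Open squares are the 5 Xist libraries and filled circles the other 7. The Bcl2a1a points of WT LPS and labelled KO medium lie above those of the other 2 groups.

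Of the effectors, Bak1 rose with LPS in WT cells and Bax did not pass in any comparison by the edgeR fit with TMM scaling. Bak1 lay at 104, 115.9 and 85.8 CPM in WT medium 1, 2 and 3 and at 179.9, 244 and 173 in WT LPS, with no overlap. It lay at 179.4, 117 and 189 in labelled KO medium and at 127, 112 and 131 in labelled KO LPS, which overlapped through labelled KO medium 2. LPS in WT cells gave 1.52 ± 0.27 (log2, 2.86-fold, adjusted p = 0.0027) and labelled KO LPS over labelled KO medium -1.13 ± 0.27 (adjusted p = 0.0085). Between the genotype labels Bak1 gave 1.46 ± 0.27 in medium (adjusted p = 0.0027) and -1.18 ± 0.27 under LPS (adjusted p = 0.0083). No call of Bak1 was lost by leaving out 1 library. With library totals alone, the comparisons that hold labelled KO LPS were lost, at -0.39 (adjusted p = 0.23) against labelled KO medium and -0.69 (0.056) against WT LPS. Within the Xist libraries the WT difference was 1.84 and within the Y-linked ones 1.09 (log2, no test).

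Bax lay at 47.5, 84.3 and 51.5 CPM in WT medium 1, 2 and 3, at 41.3, 27.8 and 27.5 in WT LPS, at 42.2, 54.0 and 25.5 in labelled KO medium and at 79.9, 56.8 and 49.9 in labelled KO LPS. In unscaled CPM the WT LPS libraries all lay below WT medium, whereas after TMM scaling the groups overlapped. The log2 fold of LPS in WT cells was -0.35 ± 0.41 (95% interval -1.25 to 0.55, adjusted p = 0.61) and turned to 0.06 without WT medium 2. Labelled KO LPS over labelled KO medium gave -0.15 ± 0.41, and 0.62 with library totals alone. The interaction was 0.20, but passed with library totals alone (1.54, adjusted p = 0.0175) and with limma on FPKM (1.55, adjusted p = 0.0148). Limma also called labelled KO over WT under LPS (0.94, adjusted p = 0.0460).

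Of the BH3-only members, Bid varied little in level. It lay at 43.6, 33.4 and 42.5 CPM in WT medium 1, 2 and 3, at 45.7, 38.1 and 30.2 in WT LPS, at 38.9, 35.5 and 39.6 in labelled KO medium and at 44.8, 43.6 and 43.9 in labelled KO LPS. The fold of labelled KO over WT in medium passed at 0.77 ± 0.23 (log2, adjusted p = 0.0296), but was -0.068 with library totals alone and lost its call without any of 7 libraries (adjusted p = 0.052 to 0.11), with no filter (0.25), with a sex term (0.062) and with the shared description numbers as terms (0.054). DESeq2 called labelled KO LPS over labelled KO medium (-0.54, adjusted p = 0.0282). The fold of LPS in WT cells was 0.55 ± 0.23 (adjusted p = 0.12), and -0.067 with library totals alone. The direction of Bid thus rested on the scaling, and its counts may hold reads of Bcl2l13.

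Bcl2l11 split the libraries along another line. It lay at 136, 41.8 and 129 CPM in WT medium 1, 2 and 3 and at 44.2, 155 and 132 CPM in labelled KO LPS 1, 2 and 3. In WT LPS it lay at 68.9, 50 and 40.6 CPM and in labelled KO medium at 42.2, 33.4 and 41.7 CPM. The 4 libraries above 100 CPM were the Xist libraries of WT medium and labelled KO LPS. WT LPS 2, also an Xist library, lay at 50 CPM. No fold passed with TMM scaling: LPS in WT cells gave -0.26 ± 0.46 (log2, 95% interval -1.27 to 0.74), and 0.24 with a sex term in the fit. With library totals alone, labelled KO LPS over labelled KO medium passed at 1.498 (adjusted p = 0.0272), labelled KO over WT in medium at -1.39 (0.0365) and the interaction at 2.44 (0.0102), which limma on FPKM also called (2.09, 0.0280). Among Xist libraries the WT difference was -0.94 and among Y-linked libraries 0.82 (log2, no test). Labelled KO over WT under LPS was likewise 1.23 among Xist and -0.87 among Y-linked libraries. Bmf, another BH3-only gene, is described with the other genes of the pathway.

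The order of levels by FPKM began with Mcl1 in WT medium (276 ± 70.1, SD, n = 3), followed by Bak1 (42.3 ± 6.29), Bax (38.8 ± 12.8), Bcl2a1b (31.2 ± 31.8), Bcl2a1d (30.9 ± 26.1), Bcl2l1 (23.1 ± 11.8), Bcl2l11 (12.7 ± 6.53), Bid (11.2 ± 1.57), Bcl2a1a (6.91 ± 4.34) and Bcl2 (1.01 ± 0.37). Each neighbour from Bak1 to Bcl2a1a overlapped the next, and Mcl1 and Bcl2 stood clear. In WT LPS the order began with Mcl1 (344 ± 30.3), Bcl2a1d (239 ± 165), Bcl2a1a (128 ± 79.7) and Bak1 (82.7 ± 16.3), which overlapped in turn. In labelled KO medium Bcl2a1d (369.8 ± 141) and Mcl1 (356 ± 44.1) overlapped at the top, and Bcl2a1a (172 ± 68.1) came next. In labelled KO LPS Mcl1 (246 ± 30.8) stood clear of Bak1 (51.3 ± 4.22). Bcl2 ended the order in all 4 groups, at 0.242 to 1.01 FPKM on average.

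Added up, the 6 survival members reached 369 ± 4.05 FPKM in WT medium, 801 ± 309 in WT LPS, 1029.8 ± 268 in labelled KO medium and 322 ± 12.9 in labelled KO LPS (SD, n = 3). The 4 death members, Bax, Bak1, Bid and Bcl2l11, lay between 96.3 and 136 FPKM in every library, with means of 105, 120.5, 108.5 and 117. Divided by the TMM factors, their sum was 65.97 to 105 in WT medium, 126 to 160.0 in WT LPS, 138 to 167 in labelled KO medium and 91.9 to 101 in labelled KO LPS, so that its evenness held on the unscaled level only. The survival sum, divided likewise, was 251 to 339 in WT medium and 441 to 1337 in WT LPS. It was 1095 to 1906 in labelled KO medium and 252 to 279 in labelled KO LPS. WT medium and labelled KO LPS, which lay apart on the unscaled level, thus overlapped after scaling. The ratio of the sums was 3.54 ± 0.30, 6.90 ± 3.15, 9.71 ± 3.56 and 2.76 ± 0.05. WT LPS 2 had a ratio of 3.29, within the range of WT medium (3.21 to 3.80), while WT LPS 1 and 3 had 8.36 and 9.06. Most of the range of the survival sum lay in the A1 genes, whose FPKM averaged 69.1, 433, 651 and 49.6. A sum of transcripts is not a sum of proteins, and the sums are given without a test.

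Other genes of the mitochondrial death pathway were followed in 3 lists, chosen with earlier results of these data known. Of 16 other BCL2 family genes, 11 passed the filter on low counts, and LPS in WT cells raised 1 and lowered 1 (all genes 18.3%), with a median log2 fold of -0.21 against -0.06 for all genes tested. Bnip3, a hypoxia-inducible gene of mitophagy, rose by 2.57 ± 0.41 (adjusted p = 0.0014). Its level was 17.6, 35.6 and 31.9 CPM in WT medium 1, 2 and 3, and 76.2, 129 and 140.1 CPM in WT LPS 1, 2 and 3. The groups did not overlap. Bmf, a BH3-only gene, fell by 3.55 on the log2 scale (SE 1.03, adjusted p = 0.0326), from 56.4, 4.59 and 61.1 CPM to 0.464, 5.10 and 1.34 CPM in the same order. WT medium 2 lay below WT LPS 2, although Bmf was lower with LPS in both pairs of a shared number (log2 differences of -2.78 and -3.06, TMM-scaled CPM, no test), and the call was lost without WT medium 1 or 3 or WT LPS 1 or 3 (adjusted p = 0.086 to 0.13). Labelled KO LPS 1, at 8.02 CPM, likewise lay below the 60.1 and 74.3 CPM of labelled KO LPS 2 and 3. With only the WT groups in the fit, the call of Bmf was lost as well (adjusted p = 0.066). Bbc3 (PUMA), Pmaip1 (NOXA), Bcl2l2 and Bad did not pass, at -0.21 ± 0.30, -0.37 ± 0.57, 0.52 ± 0.27 and 0.22 ± 0.25, and the last 2 turned to -0.087 and -0.33 with library totals alone.

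Of 13 genes of the apoptosome, the caspases and their inhibitors, LPS in WT cells raised 1 and lowered 1 (median 0.16, all genes 18.3% called). Cycs, cytochrome c, lay at 39.6, 109 and 41.3 CPM in WT medium 1, 2 and 3 and at 195, 121 and 182 CPM in WT LPS 1, 2 and 3, and the groups did not overlap. It rose by 1.93 ± 0.55 (log2, adjusted p = 0.0304). Aifm1, the apoptosis-inducing factor of mitochondria, fell by 0.94 on the log2 scale (SE 0.26, adjusted p = 0.0236). The calls of Cycs and Aifm1 were lost without WT medium 1 or 3 or WT LPS 1 or 3 (adjusted p = 0.083 to 0.12), and that of Cycs also without labelled KO medium 1 or 2 (0.056 and 0.052). With only the WT groups in the fit both calls were lost (0.079 for Cycs and 0.092 for Aifm1), and with no filter that of Aifm1 (0.074). Under LPS, the libraries labelled KO had 2 of the 13 higher and 4 lower than WT (all genes 24.1%).

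Of 18 partners and regulators, LPS in WT cells raised 6 and lowered none (median 0.38), against 11.9% of all genes higher and 6.46% lower. Casp8, the protease that cuts BID, rose by 1.97 ± 0.33 (log2, adjusted p = 0.0020), and Rela, an NF-kappaB subunit, by 1.29 ± 0.32 (0.0156). Stat3 and Stat5a, transcription factors downstream of cytokine receptors, rose by 2.23 ± 0.45 (0.0055) and 1.998 ± 0.43 (0.0075). The call of Rela was lost with library totals alone, at 0.63 (adjusted p = 0.12), and without WT medium 3 or WT LPS 1 or 3 (0.058 to 0.070). It was also lost with only the WT groups in the fit (0.073) and with limma on FPKM (0.13). Under LPS, the libraries labelled KO had 1 of the 18 higher and 6 lower than WT (all genes 10.4% and 13.7%).

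**Figure D4:**
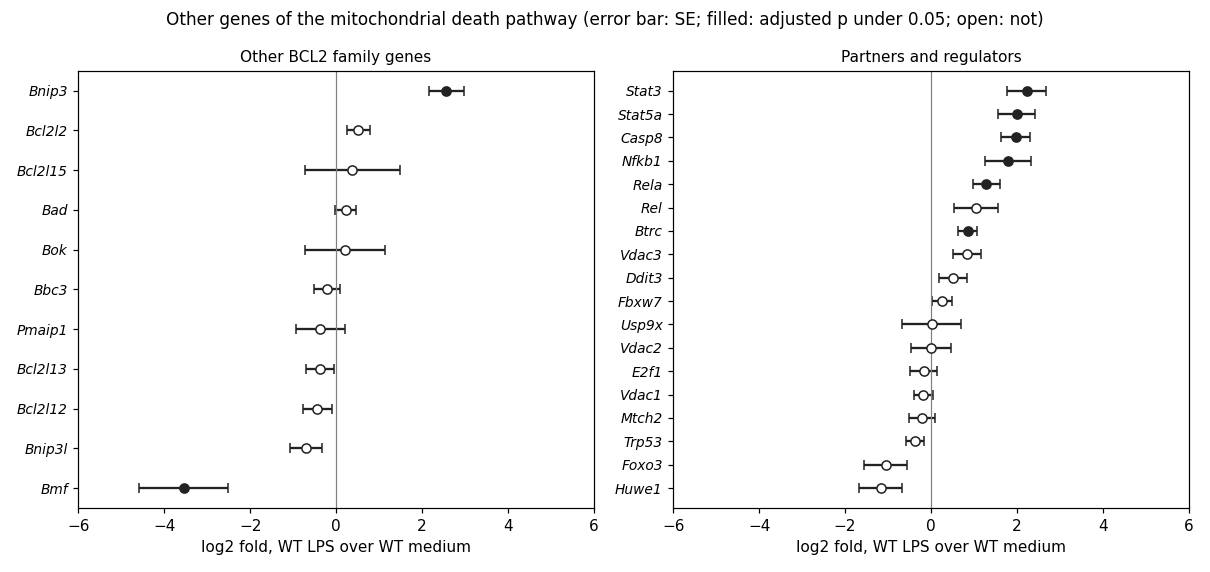
Log2 folds of LPS in WT cells (horizontal axis, TMM-scaled) for the tested genes of the first and the third list, ordered by fold within a panel. Bars are SE (3 libraries a group) and filled points have an adjusted p under 0.05; Bmf at -3.55 and Bnip3 at 2.57 lie farthest from 0.

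The genes nearest to each member over the 12 libraries were found by the root mean square difference of log2 values, each gene centred on its own mean, and are given as a description. The nearest to Bcl2a1a were Isg15 (0.51) and Ccl4 (0.53), where Bcl2a1a itself had an SD of 2.71. The nearest to Bcl2a1d were Tnf (0.39) and Igf2bp1 (0.46) for an SD of 2.34, and to Bcl2a1b Txn1 (0.42) and Mrpl52 (0.44) for an SD of 1.72. Mcl1 had Map4 (0.07) and Bloc1s6 (0.15) nearest for an SD of 0.59. Bak1 had Rnf34 (0.19) and Cndp2 (0.19) for 0.72, Bcl2 had Abraxas1 (0.21) and Lactb (0.22) for 0.66, and Bid had Atp13a1 (0.15) and Ier5 (0.16) for 0.33. All libraries share these values' depth and scaling, and the large group differences of the A1 genes set most of their distance.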

How the data were processed

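RNA sequencing of 12 libraries was analysed from 2 deposited tables. The authors' count table holds raw whole-number counts per gene, per the file headers and values, for 54446 genes, 27384 of them at 0 throughout. The authors' FPKM table holds those counts scaled by length and library total and is no separate measurement (on 2040 genes checked, they differed by at most 0.000817%). The labels' protocols name both a TruSeq and a KAPA Stranded kit. Reads were placed on mm10, per the submitters' processing notes, with the aligner, counter and strand setting not given in the sources used here.

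Counts were fitted with edgeR 4.0.16 (glmQLFit, glmQLFTest, TMM factors, filterByExpr, R 4.3.3), with 1 mean per labelled group over all 12 libraries. Benjamini-Hochberg adjustment ran over the 13773 genes tested, calls needed an adjusted p under 0.05, and the SE was derived from the F statistic. Intervals of 95% use that SE and the t distribution. The script was tested on simulated data. Alternatives were DESeq2 1.42.0, DESeq2 size factors, library totals only, no filter, only the 2 groups compared, a replicate block, a sex term (Xist above 10 CPM), summed A1 copies, the numbers shared by descriptions as terms (chosen after seeing the data), limma 3.58.1 on log2(FPKM + 0.1) and leaving out each library.

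The members and lists were chosen with earlier results of these data known. Named were the members, Nlrc3 and Nos2. From each list came up to 4 rising and 4 falling genes with the smallest p in the WT LPS effect, with Bbc3, Pmaip1, Bcl2l2, Bmf, Bad and Casp8 whatever their values. Some genes of the second list are not reported here and are left out of its counts. The 2 nearest genes of each called member were also named.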

Additional observations from a re-analysis of the deposited data

Results flagged for a closer look

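For 7 members the difference between LPS and medium was not the same under the 2 genotype labels, by the test of that difference itself (edgeR quasi-likelihood test, interaction term, adjusted over 13773 genes, of which 41.1% were called). The interaction, labelled KO minus WT, was -10.48 on the log2 scale for Bcl2a1a, -8.33 for Bcl2a1d and -4.73 for Bcl2a1b. It was -2.64 for Bak1, -2.23 for Mcl1 and -1.08 for Bid. Bcl2 went the other way, at 2.23. In each of these 7 the fold within WT and the fold within the libraries labelled KO had opposite signs. The call of Bid was lost without WT medium 3, WT LPS 1, labelled KO medium 1 or labelled KO LPS 2 (adjusted p = 0.052 to 0.064), with a sex term (0.0516) and with no filter (0.20), and its sign turned with library totals alone (0.28) and with limma on FPKM (0.29). The call of Mcl1 was lost with library totals alone (-0.85, adjusted p = 0.056) and with limma on FPKM (-0.88, adjusted p = 0.052). Nos2 in both groups labelled KO, and Nlrc3 in labelled KO LPS, contradict the labels of the KO libraries, on which these values rest.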

How the results depend on the processing

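The number of members called for LPS in WT cells was 4 and fell to 2 with only those 2 groups in the fit; leaving out 1 library gave 2 to 5, with 2 without WT medium 1 or WT LPS 3. The ranges over single libraries left out were 4 to 6 for labelled KO LPS over labelled KO medium, 4 to 7 for labelled KO over WT in medium, 3 to 4 under LPS, 0 for both crossing comparisons and 6 to 8 for the interaction. Where a group is left with 2 libraries, its spread is taken from all groups. Over all genes, the count for LPS in WT cells was 2526, and 4233 with library totals alone, 4398 with limma and 1590 with only those groups. For labelled KO LPS over labelled KO medium it was 4186, against 6494 and 6445 in the first 2 settings. For labelled KO over WT in medium it was 3620, against 6644 and 6435, and under LPS 3324, against 4681 and 4826. The count under LPS fell to 2185 with only those 2 groups. It also fell to 2675 with the shared description numbers as terms and to 2898 with the replicate block. With no filter, 3 and 99 genes were called in the crossing comparisons.

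Replicate numbers did not pair the libraries: correlations of same-numbered libraries ran from -0.63 to 0.567. With the replicate block, 4, 5, 5, 4, 0, 0 and 7 members were called in the 7 tests, against 4, 5, 6, 4, 0, 0 and 7 without it. The one lost was Bcl2 for labelled KO over WT in medium (-1.20, adjusted p = 0.069). The libraries whose descriptions share a number correlated at 0.593 (WT medium 2, WT LPS 1) and 0.456 (WT medium 3, WT LPS 2). Some pairs without a shared number reached similar values, such as 0.479 for WT medium 1 and WT LPS 2, both Xist libraries. WT medium 2 and labelled KO LPS 1, both Y-linked, had 0.64, while WT medium 3 and WT LPS 1 had -0.565. These correlations therefore do not show that the number pairs the libraries. With the 2 shared numbers as terms, an alternative chosen after seeing the data, 4, 5, 5, 4, 0, 0 and 7 members were called. In medium, labelled KO over WT then lost Bcl2 (-1.02, adjusted p = 0.18) and Bid (0.84, 0.054) and gained Bcl2a1b (2.998, 0.0305).

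Signs turned as follows, and the cause was not tested. With library totals alone, the fold of LPS in WT cells was -0.014 for Bcl2l1, -0.067 for Bid, -0.087 for Bcl2l2 and -0.33 for Bad. Labelled KO LPS over labelled KO medium was 0.17 for Bcl2l1, 0.62 for Bax and 0.22 for Bid. Labelled KO over WT was -0.046, -0.59 and -0.068 in medium for Bcl2l1, Bax and Bid, and 0.14 and 0.21 under LPS for Bcl2l1 and Bid, with interactions of 0.18 and 0.28 for those genes. With limma on FPKM, LPS in WT cells gave -0.076 for Bid, -0.077 for Bcl2l2 and -0.34 for Bad. Labelled KO LPS over labelled KO medium then gave 0.020 for Bcl2l1, 0.65 for Bax and 0.21 for Bid. In medium, labelled KO over WT gave -0.61 for Bax and -0.058 for Bid, and 9.46e-05 for Bcl2l1 and 0.23 for Bid under LPS, with an interaction of 0.29 for Bid. With a sex term, Bcl2l11 was 0.24 for LPS in WT cells, 0.18 and -0.024 for labelled KO over WT in medium and under LPS, and -0.21 for the interaction. In that fit Bax was 0.36 for labelled KO LPS over labelled KO medium and -0.24 for labelled KO over WT in medium, and Pmaip1 was 0.24 for LPS in WT cells. Leaving out 1 library gave Bax ranges of -0.72 to 0.060, -0.44 to 0.17, -0.17 to 0.63 and -0.20 to 0.60, for LPS in WT cells, in the libraries labelled KO, labelled KO over WT in medium and the interaction. The turns came without WT medium 2, labelled KO medium 2, labelled KO medium 2 and WT medium 2, labelled KO medium 3 (-0.015) or labelled KO LPS 1 (-0.029). Of the 1354 values of single genes under an alternative, 1198 kept sign and side of the threshold, 34 passed newly, 84 no longer passed and 38 changed sign.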
